A study of Mus musculus with 4 samples.

Results

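The transcription factors that specify granulocytes were read out in neutrophil-like suppressor cells of newborn mice labelled as carrying, or not carrying, a myeloid deletion of Dhps, the gene for deoxyhypusine synthase. The group comprised 10 genes, Cebpa, Cebpb, Cebpd, Cebpe, Spi1, Gfi1, Irf8, Klf4, Runx1 and Myb, taken by name from the 28585 genes listed, and all 10 were found and measured in every library. The data were 4 bulk RNA sequencing libraries of PMN-MDSCs, the polymorphonuclear (neutrophil-like) kind of myeloid-derived suppressor cell, sorted as CD11b+ Ly6G+ cells with low or no Ly6C from spleens at postnatal day 7. Libraries labelled Dhps cko (2) came from Dhps fl/fl Lysm cre pups, in which Cre recombinase is made from the Lyz2 locus in myeloid cells, and libraries labelled Dhps flox (2) came from Dhps fl/fl pups, so both genotypes carried the floxed allele. Only this age, this organ and these sorted cells were sequenced, so the stages named here are those of granulopoiesis for which each factor is known, not stages that were sampled. The paper describes the genotypes as littermates. The labels do not say which libraries share a litter, or whether replicates came from separate pups or pools. The p-values measure only the spread between these libraries.

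Granulocytes arise in steps from myeloid progenitors through promyelocytes and myelocytes to segmented neutrophils, and each step is known for a different set of transcription factors. PU.1 (Spi1), RUNX1, MYB and C/EBPα act in progenitors, C/EBPε and GFI1 carry cells through the granulocytic stages, C/EBPβ and C/EBPδ are induced by cytokines in emergency granulopoiesis, and IRF8 and KLF4 direct cells to monocytes and dendritic cells. Deoxyhypusine synthase is needed to form hypusine on the translation factor eIF5A, which helps ribosomes through runs of prolines.

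The promoters of 2 members, Irf8 and Cebpb, are shown as background, and no result depends on them. Both genes were picked for their values here. Cebpb had the largest spread between libraries of the same genotype. Irf8 was one of the 2 members whose genotypes did not overlap, and had the largest genotype difference. Cebpe, the other, had a larger difference than Irf8 with a pseudocount of 1 or without Dhps cko replicate 2 or Dhps flox replicate 1. Each line gives the 250 bases before the annotated start, on the plus strand of GRCm38.p6 (RefSeq). The Irf8 window was chr8:120736108-120736357, and its capitals mark the letters TTCNNNGAA, the GAS motif bound by STAT factors. The Cebpb window was chr2:167688665-167688914, and its capitals mark TGACG or its reverse complement, the cAMP response element half-site.
Irf8: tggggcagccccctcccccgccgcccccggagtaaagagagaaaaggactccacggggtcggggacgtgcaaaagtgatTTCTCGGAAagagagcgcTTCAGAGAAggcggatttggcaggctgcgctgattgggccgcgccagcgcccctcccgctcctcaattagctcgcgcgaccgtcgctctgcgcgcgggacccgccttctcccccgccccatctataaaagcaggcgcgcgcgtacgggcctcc
Cebpb: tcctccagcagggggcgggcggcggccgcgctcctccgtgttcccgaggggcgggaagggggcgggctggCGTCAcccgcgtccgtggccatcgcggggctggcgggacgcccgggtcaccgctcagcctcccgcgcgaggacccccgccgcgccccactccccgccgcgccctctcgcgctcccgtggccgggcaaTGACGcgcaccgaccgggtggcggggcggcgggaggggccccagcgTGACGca
The Irf8 window held 2 GAS matches, which started 171 and 153 bases before the start, and no other window of a member held one. The Cebpb window held 3 half-sites, at 180, 53 and 7 bases before the start, and the Klf4 window held 1. RefSeq promoters were found for 7 of the 10 members, in 10 windows, and the promoters of Cebpe, Spi1 and Cebpd were not matched. Over 32851 promoters of that length, both strands counted, 7.02% held a GAS motif and 17.8% a half-site. The C/EBP half-site TTGCG, held by 14.5% of promoters, occurred once each before Cebpa and Myb. The PU.1 core GAGGAA, held by 23.3%, occurred once before Runx1, and the RUNX motif TGTGGT, held by 14.0%, in no member's window. A match describes the letters of the window and is not evidence of binding. Any part of these motifs in the Irf8 difference or the Cebpb spread was not tested.

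The libraries were alike in scale. Their FPKM summed to between 304281 and 319286. A rough estimate from steps between low values was 29400000 to 32600000 mapped fragments, which does not establish their depth. The neutrophil markers of the sorted cells were present throughout, with Ly6g at 222 and 242 FPKM in Dhps cko and 195 and 185 in Dhps flox. Dhps was at 2.38 and 2.59 FPKM in Dhps cko and 3.57 and 3.11 in Dhps flox, so the targeted transcript stood at 74.4% of its Dhps flox mean (limma adjusted p = 0.63). FPKM of the whole gene do not separate recombined from intact transcripts. Lyz2, the locus that carries Cre, was at 2245 and 2380 against 6874 and 6544 FPKM, with a limma adjusted p of 0.083.

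In these cells the group was led by Cebpe and Spi1, and the other 8 members, Gfi1 among them, were expressed at a small fraction of their level. FPKM are scaled by gene length, so levels can be set side by side between genes. Cebpe averaged 261 FPKM over the 4 libraries, Spi1 149, Cebpd 29.2, Cebpb 18.8, Gfi1 8.97, Runx1 6.85, Myb 6.71, Klf4 6.68, Cebpa 2.71 and Irf8 2.51. Cebpe was therefore 104-fold above Irf8, and lay at percentile 99.0 of the genes that averaged 1 FPKM or more, while Irf8 lay at percentile 24.4. Neighbours in this order did not overlap between any of the libraries down to Runx1, and again between Klf4 and Cebpa. Runx1, Myb and Klf4 overlapped each other, as did Cebpa and Irf8, so their order within these sets was not resolved beyond the spread between libraries. The largest step between neighbours was the one from Spi1 to Cebpd, 5.08-fold, and the smallest without overlap was that from Gfi1 to Runx1, 1.31-fold.

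**Figure D1:**
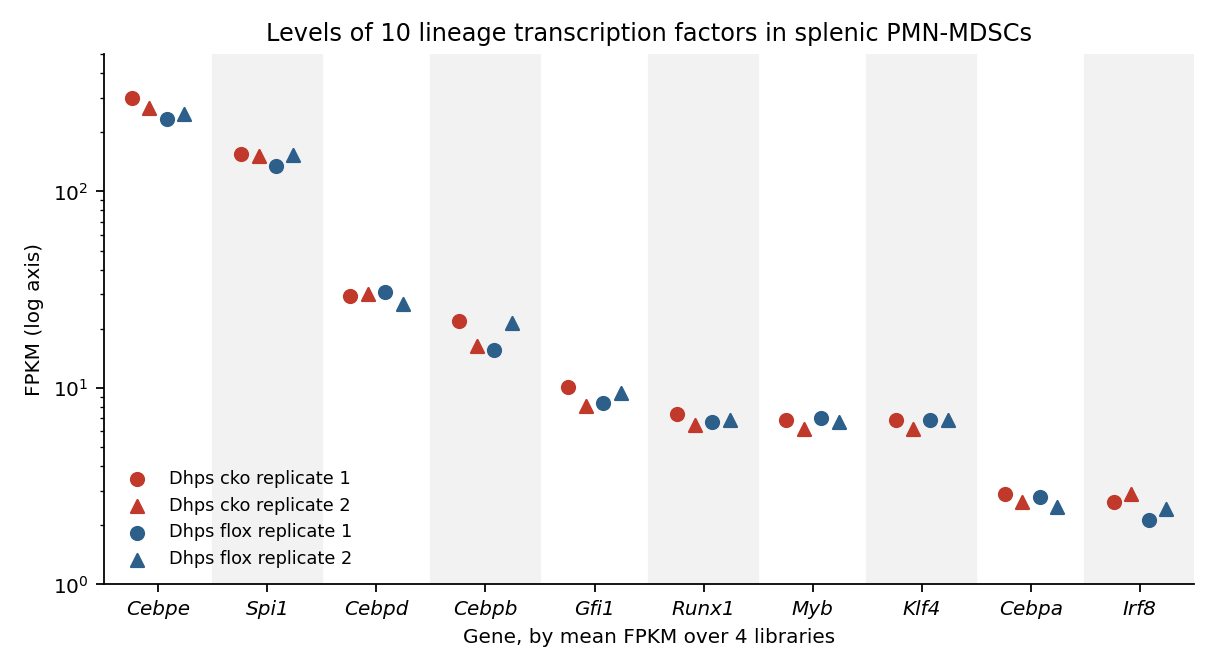
FPKM (log axis) of the 10 transcription factors in each of the 4 libraries, with genes ordered by their mean and points coloured by genotype and shaped by replicate number. Cebpe and Spi1 lie above 135 FPKM in every library, Cebpa and Irf8 between 2.12 and 2.90 FPKM.

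Between genotypes, no member passed the test: 0 of 10 reached an adjusted p under 0.05 in limma, where 0.00557% of the 17948 genes tested did. That percentage is 1 gene, Gm20716, named after its values were seen, which was at 5.60 and 5.75 FPKM in Dhps cko and listed at 0 in both Dhps flox libraries. Without adjustment, 1 member (Cebpe) had a limma p under 0.05, against 7% of all genes tested. Both libraries of Dhps cko lay above both of Dhps flox for Cebpe and Irf8, and no member lay below without overlap, while 36% of all genes tested did not overlap, 20% above and 16% below. The difference in log2(FPKM + 0.1) was above 0 for 8 of 10 members, against 52.2% of genes tested. The median difference of the members was 0.05 and that of all genes tested 0.01. The 95% interval of the difference stayed within 1.5-fold in either direction for 9 of 10 members, all but Irf8. A p that misses the threshold with 2 libraries a genotype does not show that levels were equal, and these intervals give the sizes the data leave room for.

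**Figure D2:**
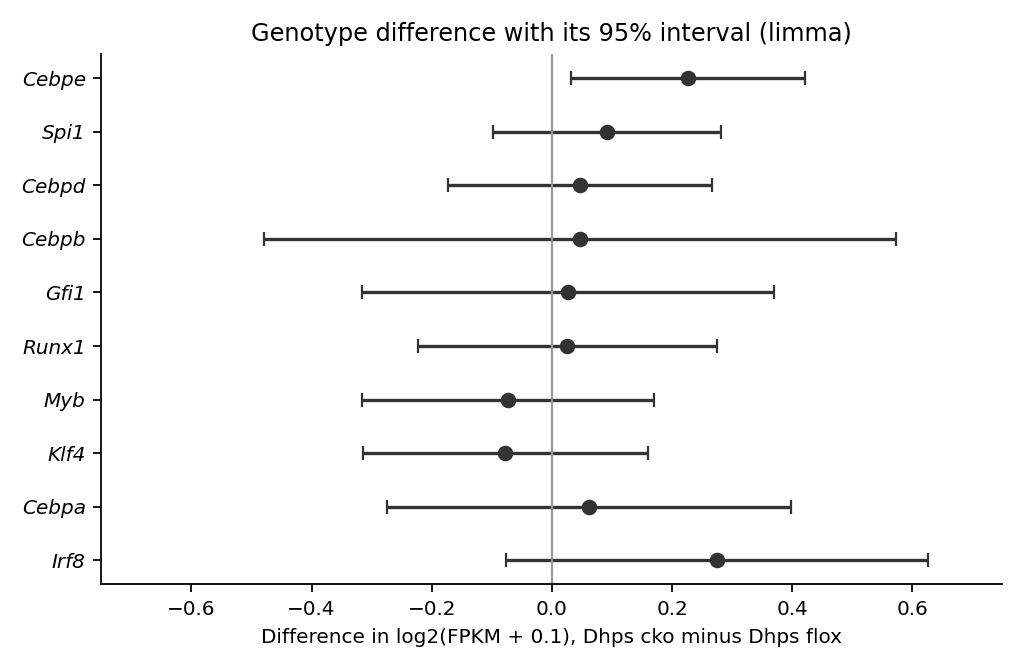
Difference in log2(FPKM + 0.1), Dhps cko minus Dhps flox, for each member (points) with its 95% interval from limma (bars), 2 libraries a genotype. The interval of Cebpe, 0.03 to 0.42, lies above 0 before adjustment, and the other 9 intervals include 0.

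Among the factors of early myeloid progenitors, Spi1 was the only one at a high level. Spi1 encodes PU.1, an ETS factor required for all myeloid cells (ENSMUSG00000002111, chromosome 2, 91082390 to 91115756, plus strand of GRCm38, 7 exon blocks). It was at 154.5 and 152 FPKM in Dhps cko and 135 and 153 in Dhps flox. The lowest value was that of Dhps flox replicate 1, and the other 3 libraries lay close together, so the genotypes overlapped. The means were 153 ± 1.80 and 144 ± 12.2 FPKM (SD, n = 2 each), a log2 difference of 0.09 with a standard error of 0.07 and a limma adjusted p of 0.83.

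Cebpa encodes C/EBPα, which is needed to form granulocyte-monocyte progenitors (ENSMUSG00000034957, chromosome 7, 35119293 to 35121928, plus strand, a single exon). Its level was 2.90 and 2.63 FPKM in Dhps cko and 2.80 and 2.49 in Dhps flox. Replicate 1 was the higher library in both genotypes, which overlapped. At the estimated depths, its exon of 2636 bases gives about 249, 218, 232 and 193 fragments, the fewest of any member. If those depths hold, counting alone gives the lowest a coefficient of variation of 7.20%. The log2 difference was 0.06 (95% interval -0.27 to 0.40, limma adjusted p = 0.95).

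Runx1, the DNA-binding subunit of core-binding factor and a gene of definitive haematopoiesis, lies on the minus strand of chromosome 16 from 92601466 to 92826149 (ENSMUSG00000022952). It was at 7.35 and 6.49 FPKM in Dhps cko and 6.67 and 6.90 in Dhps flox, and both Dhps flox values fell between those of Dhps cko. The log2 difference was 0.03 (95% interval -0.22 to 0.27, limma adjusted p = 0.98). Myb, which keeps progenitors dividing, lies on the minus strand of chromosome 10 from 21124935 to 21160984 (ENSMUSG00000019982). It was at 6.90 and 6.18 FPKM in Dhps cko and 7.02 and 6.73 in Dhps flox. Dhps cko replicate 2 was the lowest library, and the genotypes overlapped, with a log2 difference of -0.07 (95% interval -0.32 to 0.17, limma adjusted p = 0.91).

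Myb was measured beside other signs of immature cells. The markers of stem and progenitor cells summed to 8.27 and 7.63 FPKM in Dhps cko and 8.08 and 8.58 in Dhps flox, and Kit, the stem cell factor receptor, was at 4.12 and 3.50 against 3.89 and 4.69 FPKM. Of 17 cell cycle genes, 0 had an unadjusted limma p under 0.05 in either direction, where 7% of all genes tested did. Their differences were below 0 for 11 of 17, and 2 (Mki67 and Top2a) lay below and 0 above without overlap, where 16% of all genes tested lay below. The most abundant of them, Mki67, a marker of dividing cells, was at 103 and 90.0 FPKM against 107 and 108. Dhps cko replicate 2 was the lowest library for Myb, Kit and Mki67, but not for all genes of these lists. Sox4 and Flt3 were highest in it, and Mcm5 and Plk1 were lowest in Dhps flox replicate 1. Of 7 stem and progenitor markers tested, 2 lay above and 1 below without overlap, where 20% and 16% of all genes tested did. In bulk libraries, fewer cells of a type and less RNA per cell cannot be told apart.

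Cebpe was the most abundant member and the one with the lowest p. It encodes C/EBPε, the factor of the promyelocyte to myelocyte step, without which neutrophils lack secondary granule proteins (ENSMUSG00000052435, chromosome 14, 54710360 to 54712174, minus strand, 2 exon blocks). Cebpe was at 298 and 266 FPKM in Dhps cko and 235 and 247 in Dhps flox. Both Dhps cko libraries lay above both Dhps flox libraries, with Dhps cko replicate 1 the highest. The means were 282 ± 22.6 and 241 ± 8.56 FPKM (SD, n = 2 each), so Dhps cko stood at 117% of Dhps flox. On the log2 scale the difference was 0.23 with a standard error of 0.08, a limma p of 0.031 and an adjusted p of 0.65. The unadjusted call was lost with the replicate block (limma p of 0.072), with TPM scaling, quantile normalization or no variance trend, and without Dhps cko replicate 1 or either Dhps flox library.

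The genes listed for the granule stages did not pass the test either. Of 10 genes of the secondary granule stage, among them the receptor gene Ltb4r1, 0 had an unadjusted limma p under 0.05 (7% of all genes tested did). Without overlap, 4 lay above and 1 below, where 20% of all genes tested lay above and 16% below, and their median log2 difference was 0.05. That median was 0.08 without Dhps cko replicate 1 or Dhps flox replicate 1, 0.01 without Dhps cko replicate 2 and -0.0023 with quantile normalization. The most abundant, Ngp, neutrophilic granule protein, was at 27902 and 27612 FPKM in Dhps cko and 27249 and 26340 in Dhps flox. Of 8 genes of the primary granule (promyelocyte) stage, not all of them for granule proteins, 7 were tested. Of these, 0 had an unadjusted p under 0.05, 2 (Serpinb1a and Prtn3) lay above without overlap, and the median difference was 0.31. That median rested on the Dhps cko libraries, being 0.13 without replicate 1 and 0.67 without replicate 2. Prtn3, proteinase 3, was at 13.2 and 7.72 against 6.54 and 7.19 FPKM, and was highest in Dhps cko replicate 1, as Cebpe was. Of 12 late maturation genes, 11 had a difference above 0, and 5 lay above and 0 below without overlap. Their median difference of 0.14 was 0.06 without Dhps flox replicate 2, 0.08 without Dhps cko replicate 2 and 0.21 without Dhps flox replicate 1. An unadjusted p under 0.05 was found for 1 of them, Il1r2 at 20.1 and 24.5 against 17.3 and 18.2 FPKM (log2 difference 0.32, limma adjusted p = 0.66). Cebpe is also expressed in eosinophil precursors, and markers of eosinophils, basophils and mast cells stood higher as well. Their sum was 23.4 FPKM in both Dhps cko libraries and 9.55 and 19.8 in Dhps flox. Prss34, a basophil protease gene and the most abundant of them, was at 8.05 and 9.76 against 2.40 and 9.36 FPKM, and overlapped. Of those 8 markers, 4 lay above and 1 below without overlap, and 1 (Prg2) had an unadjusted limma p under 0.05. Epx, eosinophil peroxidase, was at 0.25 and 0.16 against 0.09 and 0.07 FPKM. Il5ra, an eosinophil receptor gene, was at 0.22 and 0.09 against 0.10 and 0.12 FPKM, and overlapped. Their part in the Cebpe difference was not tested.

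Gfi1, a zinc finger repressor that holds back monocyte genes in neutrophil precursors, lies on the minus strand of chromosome 5 from 107716657 to 107726036 (ENSMUSG00000029275). It was at 10.1 and 8.08 FPKM in Dhps cko and 8.34 and 9.39 in Dhps flox. The highest and the lowest library were both Dhps cko, and both Dhps flox values lay between them. The log2 difference was 0.03 (95% interval -0.32 to 0.37, limma adjusted p = 0.98).

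Cebpb and Cebpd, the C/EBP genes of cytokine-driven granulopoiesis, stood 1.56-fold apart and did not overlap. Cebpb (ENSMUSG00000056501, chromosome 2, 167688915 to 167690418, plus strand, a single exon) was at 21.9 and 16.3 FPKM in Dhps cko and 15.7 and 21.4 in Dhps flox. Each genotype had 1 high and 1 low library, Dhps cko replicate 1 and Dhps flox replicate 2 being high, and the difference within a genotype was 0.43 and 0.45 on the log2 scale. The difference between genotypes was 0.05 with a standard error of 0.20, the largest error of the group (limma adjusted p = 0.98). Cebpd (ENSMUSG00000071637, chromosome 16, 15887286 to 15891031, plus strand, a single exon) was at 29.3 and 30.1 FPKM in Dhps cko and 30.8 and 26.8 in Dhps flox. The Dhps cko values lay between those of Dhps flox, with a log2 difference of 0.05 (95% interval -0.17 to 0.27, limma adjusted p = 0.95).

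Part of both genes is shared with a neighbour on the opposite strand, and the strand setting of the counting was not given in the sources used here. Tmem189 covers 20.7% of the Cebpb exon bases and was at 19.6, 20.4, 18.2 and 20.3 FPKM in Dhps cko replicates 1 and 2 and Dhps flox replicates 1 and 2. Like Cebpb, Tmem189 was higher in replicate 2 than in replicate 1 of Dhps flox, while in Dhps cko Cebpb was higher in replicate 1 and Tmem189 in replicate 2. The part of shared reads in the Cebpb values was not tested. Spidr covers 15.0% of Cebpd and was at between 5.58 and 6.18 FPKM. For the other members the shared part was at most 6.26% (Myb with Gm26577), and Cebpe, Spi1, Klf4 and Irf8 shared none.

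Within the C/EBP family, Cebpe supplied most of the transcripts in every library. As a percentage of the summed FPKM of Cebpa, Cebpb, Cebpd, Cebpe and Cebpg, an ubiquitous partner, Cebpe was at 83.3% and 82.8% in Dhps cko and 81.0% and 81.6% in Dhps flox. Cebpd followed with 8.19% and 9.35% against 10.6% and 8.85%, and Cebpb with 6.12% and 5.06% against 5.40% and 7.06%. Cebpa was at 0.810% and 0.818% against 0.966% and 0.823%. The share of Cebpe was higher in both Dhps cko libraries, and those of Cebpb and Cebpd overlapped. Shares sum to the whole, so a larger share of Cebpe lowers the others, and the FPKM of Cebpa overlapped between genotypes.

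**Figure D3:**
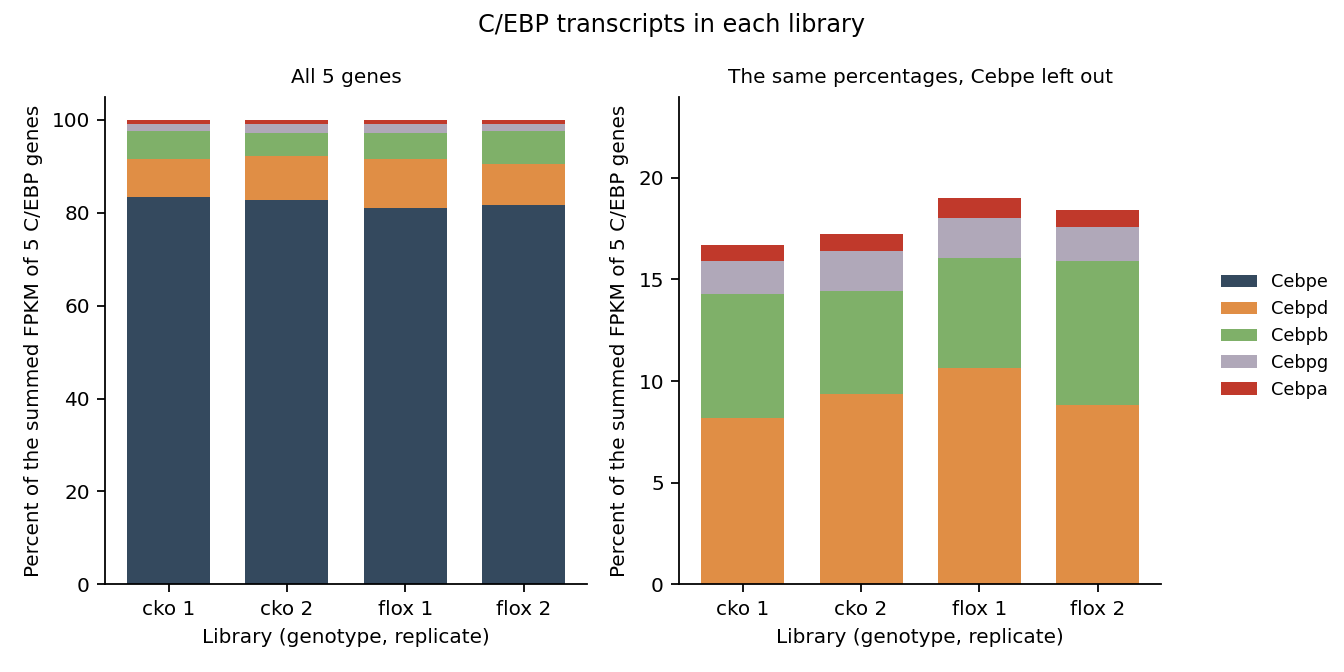
Percentage of the summed FPKM of 5 C/EBP genes in each library, with all 5 genes stacked (left) and with Cebpe left out on an enlarged axis (right). Cebpe makes up between 81.0% and 83.3% of the sum, and the remaining share is divided mainly between Cebpd and Cebpb.

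The monocyte and dendritic cell factors were measured to show what the cells held of the alternative fate. Irf8, whose product promotes monocytes and dendritic cells and restrains granulocytes, lies on the plus strand of chromosome 8 from 120736358 to 120756694 (ENSMUSG00000041515). Irf8 was at 2.62 and 2.90 FPKM in Dhps cko and 2.12 and 2.41 in Dhps flox. Both Dhps cko libraries lay above both Dhps flox libraries, by a small margin between Dhps cko replicate 1 and Dhps flox replicate 2. The means were 2.76 ± 0.20 and 2.27 ± 0.21 FPKM (SD, n = 2 each), which put Dhps cko at 122% of Dhps flox. The log2 difference of 0.28 had a standard error of 0.14 (95% interval -0.08 to 0.63), a limma p of 0.10 and an adjusted p of 0.77.

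Irf8 is also a gene of monocytes, dendritic cells and B cells, and the summed markers of each were higher in both Dhps cko libraries as well. The 10 monocyte-macrophage markers summed to 354 and 345 FPKM in Dhps cko and 292 and 298 in Dhps flox. Of these 10, 8 lay above without overlap, where 20% of genes tested did, and 4 had an unadjusted limma p under 0.05, where 4.72% of genes tested were higher at that p and 2.28% lower. The 8 B cell markers summed to 64.3 and 66.8 against 41.0 and 50.5 FPKM, with 6 above without overlap and 4 at that p. The 10 dendritic cell markers summed to 8.99 and 8.84 against 5.97 and 7.57 FPKM. Of these, 8 were tested, with 6 differences above 0, 4 of them without overlap, 2 below 0 and 0 at an unadjusted p under 0.05. The defining dendritic cell genes were low in all libraries, Flt3 at 0.08 to 0.20 FPKM and Siglech at 0.08 to 0.18. The 8 T and NK cell markers summed to 17.3 and 14.0 against 12.3 and 8.51 FPKM. Of these, 7 were tested, with 6 differences above 0, 3 of them (Trbc2, Cd4 and Cd3g) without overlap, and 1 below 0. Only Trbc2 had an unadjusted limma p under 0.05. Cd4 was at 1.52 and 1.30 against 1.11 and 1.07 FPKM, and Cd3e at 0.25 and 0.15 against 0.20 and 0.15. Without Trbc2, their most abundant gene, the T and NK cell sums were 9.0 and 8.64 against 8.73 and 7.0 FPKM and overlapped. Erythroid and megakaryocyte markers summed to 450 and 539 against 367 and 551 FPKM, and Klf1, an erythroid factor, was at 0.58 and 1.07 against 0.15 and 0.60. Neutrophil markers summed to 49042 and 51770 against 49689 and 46067 FPKM. No marker of any list was at 0 in all libraries. The part of these cells in the Irf8 difference was not tested.

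**Figure D4:**
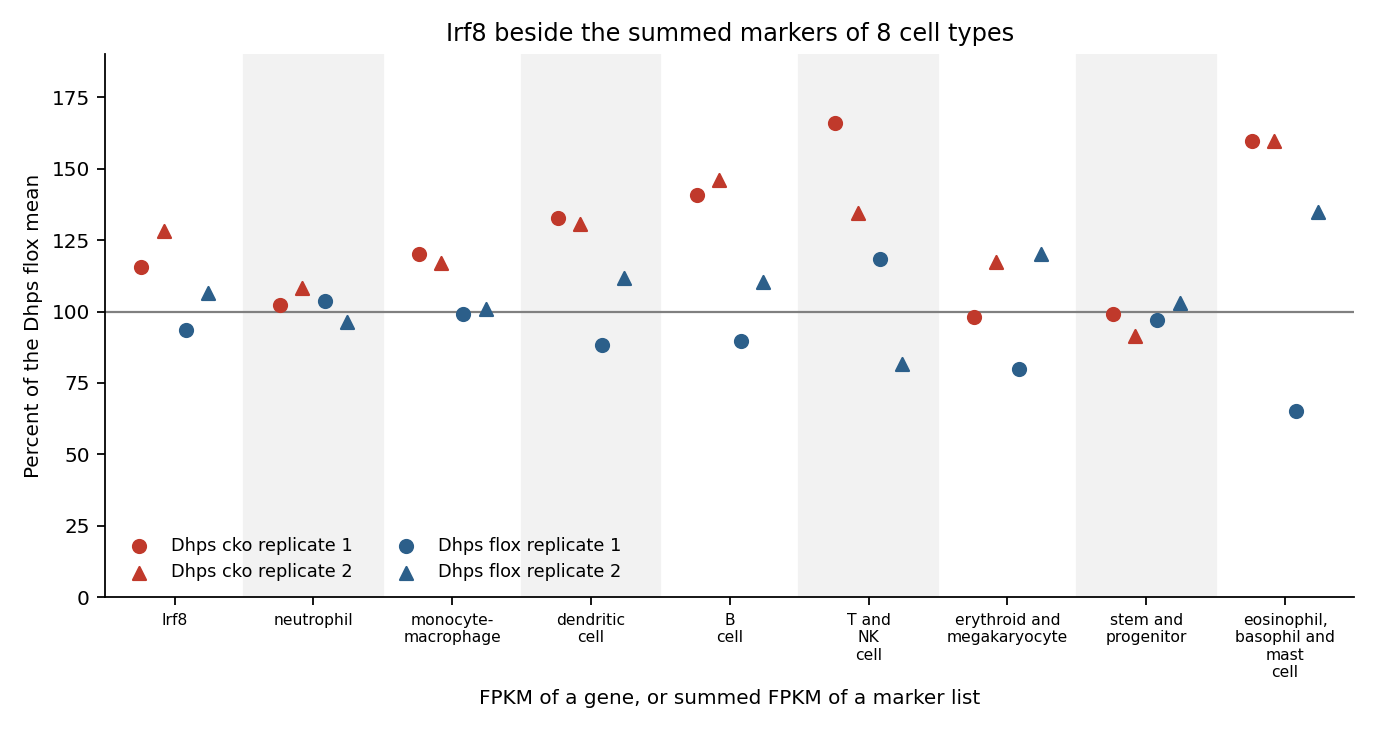
FPKM of Irf8, and summed FPKM of 8 marker lists, in each library as a percentage of the mean of the Dhps flox libraries (line at 100). Irf8 stands at 116% and 128% in Dhps cko, and monocyte-macrophage, dendritic cell and B cell markers also lie above both Dhps flox libraries in both Dhps cko libraries, as do those of eosinophils, basophils and mast cells and, through Trbc2, of T and NK cells.

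Klf4, which acts in monocyte differentiation, lies on the minus strand of chromosome 4 from 55527143 to 55532466 (ENSMUSG00000003032). It was at 6.86 and 6.15 FPKM in Dhps cko and 6.87 and 6.85 in Dhps flox. All libraries but Dhps cko replicate 2 had almost the same level, and the highest Dhps cko value lay between those of Dhps flox. The log2 difference was -0.08 (95% interval -0.32 to 0.16, limma adjusted p = 0.90). Klf4 and Irf8, known for the same fate, thus had genotype differences of opposite sign, neither of which passed the test.

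Ratios between 2 members within a library do not depend on scaling, and 8 pairs were compared. For 3 of the 8 pairs the genotypes did not overlap, which gave the smallest p that an exact permutation test of 2 against 2 allows (two-sided p = 0.33, 0.89 after Benjamini-Hochberg adjustment over the 8 pairs). The ratio of Cebpe to Cebpa, of the later to the earlier C/EBP factor, was 103 and 101 in Dhps cko and 83.8 and 99.1 in Dhps flox. The ratio of Gfi1 to Irf8, antagonists in the choice between granulocyte and monocyte, was 3.84 and 2.79 in Dhps cko and 3.93 and 3.90 in Dhps flox. Its separation rested on a gap between 3.84 and 3.90 that is small beside the spread within Dhps cko. The ratio of Runx1 to Myb was 1.07 and 1.05 against 0.95 and 1.03. The 5 other pairs overlapped, among them Cebpe to Irf8, at 114 and 91.8 against 111 and 102, so that Cebpe and Irf8 were both higher in Dhps cko without a separated ratio.

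The members also differed between libraries of the same genotype. Dhps cko replicate 1 lay above the gene's mean of the 4 libraries for 10 of 10 members, Dhps cko replicate 2 for 4, Dhps flox replicate 1 for 4 and Dhps flox replicate 2 for 6. These counts were not made over all genes tested, so they are not shown to be particular to the members. The spread between libraries of at least 1 genotype exceeded the genotype difference for 8 of 10 members, all but Cebpe and Irf8, and was smallest for Klf4 within Dhps flox and Spi1 within Dhps cko. Gfi1, Runx1 and Cebpb had the same libraries above their mean, Dhps cko replicate 1 and Dhps flox replicate 2, and the same libraries below it.

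**Figure D5:**
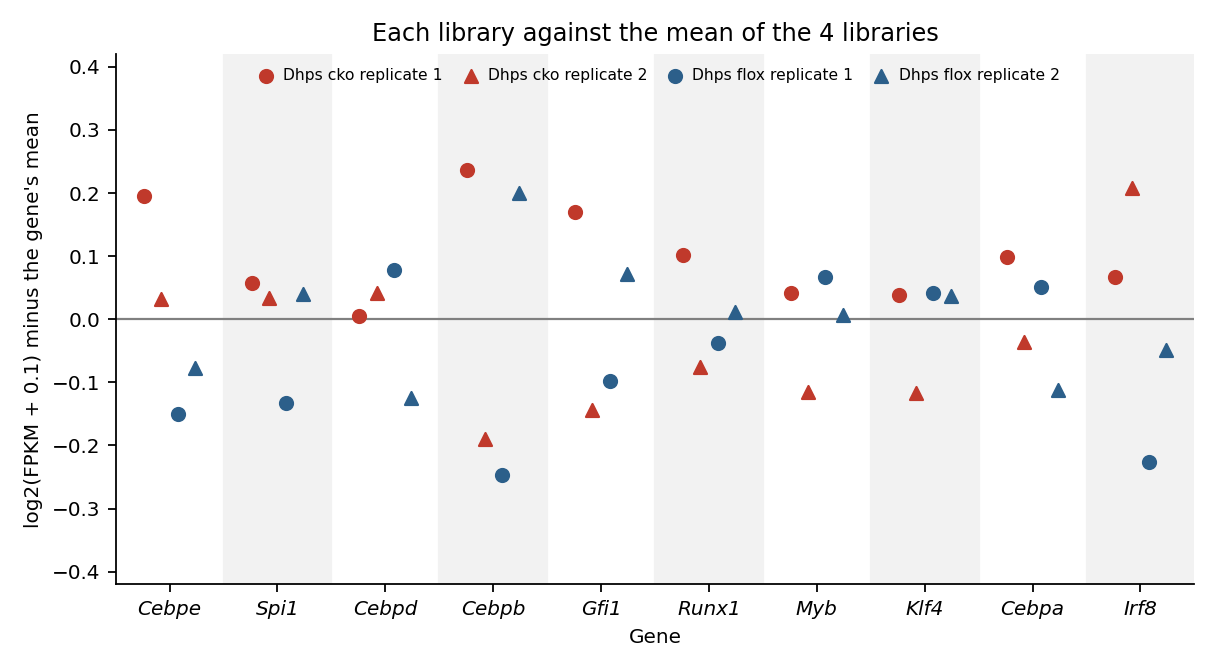
Each member's log2(FPKM + 0.1) in a library minus its mean over the 4 libraries, coloured by genotype and shaped by replicate number. Dhps cko replicate 1 lies above 0 for all 10 members, a count that was not made over all genes. Cebpb spans the widest range, 0.48 on the log2 scale.

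Partners and antagonists of the members were described from lists, and 0 genes of any list reached an adjusted p under 0.05 in limma. Of 12 partners and antagonists of the C/EBP family, 11 were tested, with 1 higher and 1 lower at an unadjusted p under 0.05, and 2 above and 2 below without overlap, against 20% and 16% of all genes tested. The median log2 difference was 0.09, being 0.02 without Dhps cko replicate 2 and 0.05 without Dhps flox replicate 1. The lower one was Trib1, a pseudokinase that directs C/EBPα protein to degradation. Trib1 was at 15.1 and 14.7 FPKM in Dhps cko and 35.3 and 23.8 in Dhps flox, so both Dhps cko libraries lay below both Dhps flox libraries, which differed from each other. Its log2 difference was -0.95 with a standard error of 0.19 (limma adjusted p = 0.49), larger than that of any member, and the Cebpa transcript overlapped between the genotypes. Immediate-early genes, which respond within minutes to handling and stimulation, stood lower in the same libraries. Of 17 such genes, 7 were lower and 2 higher at an unadjusted p under 0.05, and 10 lay below without overlap, where 2.28% of all genes tested were lower and 4.72% higher at that p and 16% lay below without overlap. Their sum was 709 and 708 FPKM in Dhps cko and 867 and 788 in Dhps flox, and their part in the Trib1 difference was not tested. The higher gene of the C/EBP list was Myc, at 1.60 and 1.44 against 1.07 and 1.09 FPKM (log2 difference 0.46, limma adjusted p = 0.68). Mxd1, the most abundant of the list, was at 98.2 and 108 against 100.4 and 99.6 FPKM.

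Of 13 ETS and core-binding partners of PU.1 and RUNX1, 1 was higher and 0 lower at an unadjusted p under 0.05, where 4.72% of all genes tested were higher and 2.28% lower. Without overlap, 2 lay above and 4 below, against 20% and 16% of all genes tested. The median log2 difference was -0.04, and -0.02 without Dhps cko replicate 2. The higher gene was Spib, a close relative of Spi1 made in B cells and plasmacytoid dendritic cells, at 3.07 and 2.76 FPKM in Dhps cko and 1.27 and 2.08 in Dhps flox (log2 difference 0.80, limma adjusted p = 0.63). The B cell markers given beside Irf8 stood higher in the same libraries, and their part was not tested. Elf4, the most abundant of the list, had a log2 difference of -0.01, and Ets2, Gabpa and Erg, among those without overlap, differences of -0.20, -0.15 and 0.05.

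Of 13 monocyte and dendritic cell fate factors beside Irf8 and Klf4, 0 were higher and 2 lower at an unadjusted p under 0.05, where 2.28% of all genes tested were lower, and 2 lay above and 3 below without overlap, against 20% and 16% of all genes tested. The median log2 difference was -0.06, being -0.02 without Dhps cko replicate 2, -0.0002 without Dhps flox replicate 1 and -0.13 without Dhps flox replicate 2. The lower genes were Egr1, at 4.93 and 4.62 FPKM in Dhps cko and 6.38 and 6.43 in Dhps flox (log2 difference -0.42, limma adjusted p = 0.49), and Klf2, at 60.6 and 59.8 against 67.7 and 66.0 (log2 difference -0.15, limma adjusted p = 0.66). Nr4a1, a factor of Ly6C-low monocytes, was at 19.9 and 17.5 FPKM against 20.6 and 20.8. Egr1, Klf2 and Nr4a1 are also on the list of immediate-early genes, whose part in these differences was not tested.

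Of the GFI1 partners and repressors, 10 of 11 were tested and 0 had an unadjusted p under 0.05 (7% of all genes tested did), with Ikzf1, Rcor1 and Bcl6 at log2 differences of -0.08, -0.12 and 0.06. Of the retinoid receptors and STAT factors of granulopoiesis, 8 of 9 were tested and 0 had such a p. Stat3, which relays the G-CSF signal, had a log2 difference of 0.02, Stat5a and Stat5b differences of -0.11 and -0.12, and Rara, the retinoic acid receptor of promyelocytes, one of 0.12. Of 10 growth factor receptors, 0 had such a p, and Csf3r, the G-CSF receptor, was at 225 and 219 FPKM in Dhps cko and 195 and 215 in Dhps flox. Of the progenitor and erythroid-basophil factors, 10 of 13 were tested and 0 had such a p. Lmo2, their most abundant gene, was at 23.1 and 23.9 against 20.5 and 21.6 FPKM, and Hlf at 2.57 and 2.70 against 2.93 and 2.72.

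Because hypusinated eIF5A acts on proline runs, the coding sequences of the members were read for them. Runs of 3 or more proline codons occurred in 5 of 10 members, and in 23.5% of the 12559 genes tested that have an annotated coding sequence. Cebpa held 4 such runs in 359 codons, the longest of 8, and 14.5% of its codons were for proline. Cebpb held 2 runs, the longest of 5, and Gfi1, Klf4 and Runx1 held 1 each, of 3. Cebpd, Cebpe, Irf8, Myb and Spi1 held none. The log2 differences in RNA were 0.06 for Cebpa and 0.05 for Cebpb, which have the longest runs. Members with and without runs were not compared by a test. RNA levels do not measure translation, and protein of these factors was not analysed here.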

How the data were processed

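Total RNA of sorted splenic PMN-MDSCs was sequenced in 4 libraries, grouped by the genotype in the sample labels. The authors deposited FPKM per gene with 2 decimals, made per the labels and methods with Cutadapt, HISAT2 on mm10 and StringTie; the annotation and strand setting are not given in the sources used here. Coordinates and exons came from GENCODE M21 (GRCm38), which held 28511 of 28585 gene IDs, and promoters from RefSeq.

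From the deposited FPKM, log2(FPKM + 0.1) was fitted in limma 3.58.1 under R 4.3.3 (lmFit, eBayes with trend) over the 17948 genes that averaged 0.1 FPKM or more, p-values being adjusted over all of them by Benjamini-Hochberg at 0.05. Differences are on that scale, which understates changes of low genes. Ratios were compared by two-sided exact permutation (Python 3.11.15, scipy 1.17.1). Depth was estimated from steps between low FPKM. At the depth that fitted best, 37.9% to 41.7% of low values lay within 0.15 of whole reads. By chance 30% would at a depth fixed beforehand, and more at a depth chosen for its fit. Reads were therefore not recovered, and depths and fragments are approximate. The limma script was checked on simulated data.

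Members and gene lists were chosen with earlier results of these data known. Named beside the members were the defining markers and, of the lists, the most abundant gene and, at a mean of at least 1 FPKM, up to 2 genes each way with the largest difference among those without overlap; for marker, granule and cell cycle lists only part of these are printed. Some genes that this rule names are not reported here. Same-numbered replicates were treated as unpaired, because the labels give no pairing. The correlation of their deviations between genotypes was -0.057, which cannot show whether litters were shared. Alternatives were other pseudocounts (0.01, 1), filters, scalings, variance models, a replicate block, and each library left out.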

Additional observations from a re-analysis of the deposited data

How the results depend on the processing

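Under all 14 alternatives, 0 of the 10 members had an adjusted p under 0.05 in limma, and Cebpe, Irf8 and Spi1 kept a difference above 0, Cebpe between 0.14 and 0.31, Irf8 between 0.19 and 0.36 and Spi1 between 0.0052 (without Dhps flox replicate 1) and 0.18 (without Dhps flox replicate 2). The count of members with an unadjusted p under 0.05 went from 1 (Cebpe) to 0 with TPM scaling, quantile normalization, no trend or the replicate block, and ranged from 0 to 1 with a library left out. It was 1 without Dhps cko replicate 2 (Cebpe) and without Dhps flox replicate 2, where Spi1 (limma p of 0.034) and not Cebpe (limma p of 0.10) was called. Genes with an adjusted p under 0.05 went from 1 to 0 with a pseudocount of 0.01, no filter or the replicate block, to 4 with a mean of at least 1 FPKM, and to 2 with quantile normalization or the robust fit, and to 0 with any library left out. Genes with an unadjusted p under 0.05 went from 1257 to 819 with a mean of at least 1 FPKM, to between 746 and 1608 with a library left out, and to 1082 with the replicate block. With TPM scaling the log2 difference of Gfi1 turned to -0.0051 and that of Runx1 to -0.0062, by a shift common to all genes whose median fell by 0.03. The cause of the other changes was not tested.

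Leaving out a library moved the log2 difference of Cebpa between -0.019 and 0.14, Cebpb between -0.18 and 0.27, Cebpd between -0.055 and 0.15, Gfi1 between -0.13 and 0.18, Klf4 between -0.16 and 1.5e-06, Runx1 between -0.063 and 0.11 and Myb between -0.15 and 0.0055. The log2 ratio difference of Cebpb to Cebpa ranged from -0.33 to 0.29, Cebpe to Irf8 from -0.21 to 0.10, Spi1 to Cebpa from -0.14 to 0.20 and Cebpb to Cebpe from -0.37 to 0.0081. The 3 pairs without overlap kept the sign of their difference but also changed in size. That of Gfi1 to Irf8 nearly vanished without Dhps cko replicate 2. With 2 libraries a genotype and a left-out library, the lone library was assumed to vary like the others. Scaling moved the median of all genes by at most 0.03. Of 280 list medians recomputed, 42 moved.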
